A study of Heterocephalus glaber with 2 samples.

Results

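The genes that build the contractile unit of skeletal muscle and drive its calcium cycle were followed in naked mole-rat skin at an old and a young age. A list of 40 symbols was matched, ignoring case, to the gene names of the deposited tables, and 35 were found among 24514 loci, each at 1 locus. All 35 passed the minimum mean of 1 FPKM (fragments counted per transcript length and per library total), as did 12753 loci in all. MYOZ2 passed it only through old skin, with means of 4.89 FPKM in old and 0.970 FPKM in young skin. TTN and TRDN were not matched and are not analysed here, and TNNC2 was matched by no name, though a locus under another name carries its description. MYH2 and MYH4 have no name of their own, but the description of the locus that carries MYH1 lists both, together with MYH3, MYH8 and MYH13. That locus is called the MYH1 locus here and cannot separate these myosins. MYH7 shared its locus with MYH6, MYBPC2 with EMC10, CASQ1 with PEA15 and TCAP with STARD3, so the values of these 5 loci may hold reads of the partner.

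The animal is Heterocephalus glaber, a burrowing rodent known for its long life. Dorsal skin of full thickness was taken at 19 years (old) and at 4 years (young), and ribosomal RNA was removed before sequencing. The labels name no strain, sex or treatment and hold 1 sample per age with 2 tables, taken here as libraries old 1, old 2, young 1 and young 2 after the numbers in the table headers. Whether the tables of an age come from different animals is not said, so a p-value covers the spread among 4 libraries and that spread may be technical.

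In a sarcomere, thick filaments of myosin pull on thin filaments of actin, which are anchored at the Z-disc, while the M-band holds the thick filaments in register. Calcium released from the sarcoplasmic reticulum through the ryanodine receptor binds troponin and lets myosin reach actin, and a pump returns it to the store. Slow and fast muscle fibres use different forms of many of these proteins, and the classes used here come from work on mouse and human muscle. The back skin of rodents carries a thin sheet of skeletal muscle, the panniculus carnosus.

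Muscle transcripts were abundant in all 4 libraries. ACTA1, the actin of skeletal muscle, stood at 1832 and 1332 FPKM in old 1 and old 2, against 1349 and 871 FPKM in young 1 and young 2. It ranked 2 and 30 in the old libraries and 6 and 64 in the young ones among loci other than small structural RNA and mitochondrial loci. The 35 loci together summed to 7830 and 7250 FPKM in old 1 and old 2, against 5673 and 4777 FPKM in young 1 and young 2. As a share of the FPKM outside structural RNA and mitochondrial loci this was 3.93% and 2.55% in old skin, against 2.98% and 1.46% in young skin. In whole skin, more muscle fibres and more RNA per fibre cannot be told apart.

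The libraries stood apart by number. Small structural RNAs held 51.1% and 46.8% of the FPKM in old 1 and young 1, but 0.327% and 0.0933% in old 2 and young 2. Mitochondrial genes held 4.06% and 5.77% in the number 1 libraries, old before young, and 29.6% and 23.2% in the number 2 libraries. The ages are therefore compared inside number 1 and inside number 2, each time 1 old library over 1 young library with no replicate check. A log2 ratio below is of FPKM + 1, which understates the change of low genes.

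**Figure D1:**
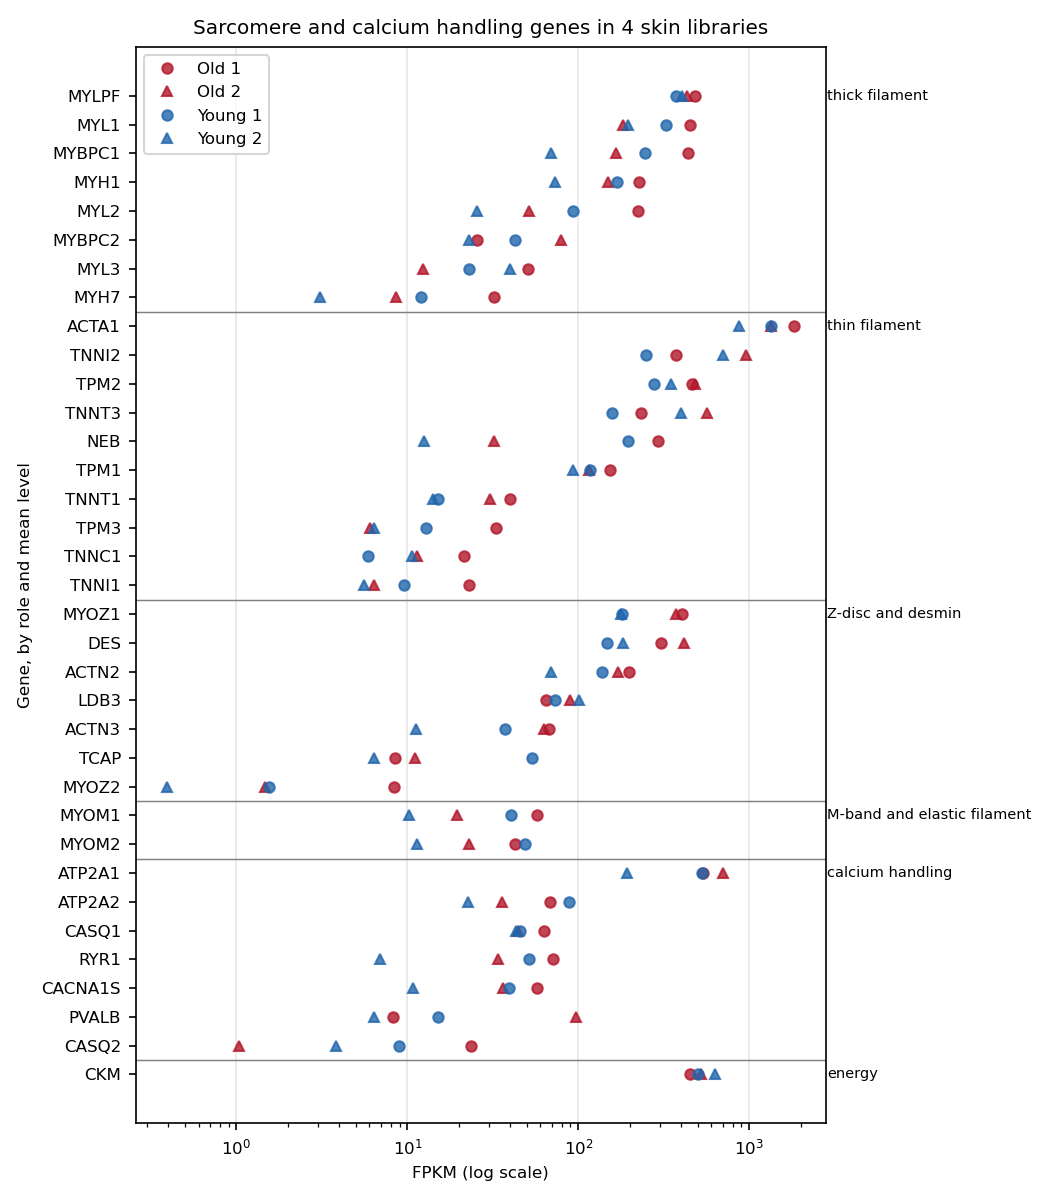
FPKM of the 35 matched genes (horizontal log axis) in old 1, old 2, young 1 and young 2, grouped by role and ordered by mean level, 1 point per library. Levels span from 0.392 FPKM for MYOZ2 in young 2 to 1832 FPKM for ACTA1 in old 1, and for several genes, such as NEB, the numbers lie further apart than the ages.

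Most of these genes were higher in the old library of each pair. In both numbers 24 of 35 were higher in old skin and 2 were lower in old skin, where 26.7% and 23.1% of all tested loci were higher and lower in both. The median log2 ratio of the 35 was 0.54 in number 1 and 0.83 in number 2, against 0.07 and -0.06 over all loci. At least 2-fold higher were 11 of 35 in number 1 (2.36% of all loci) and 14 of 35 in number 2 (4.33% of all loci). At least 2-fold lower were 1 of 35 in number 1 (1.83% of all loci) and 2 of 35 in number 2 (5.55% of all loci). The 30 genes with a locus of their own had medians of 0.57 and 0.74.

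The 4 genes at least 2-fold higher in both numbers were MYH7, TNNT1, MYOZ1 and DES, where 0.314% of all loci were. None was at least 2-fold lower in both, where 0.557% of all loci were. MYL2 and MYOZ2 missed them by their ratios in number 2, with log2 ratios of 1.26 and 0.99 and of 1.87 and 0.83. On plain FPKM both were past 2-fold in both numbers, at 2.41 and 2.03 for MYL2 and 5.36 and 3.77 for MYOZ2. With 0.1 FPKM added in place of 1, the genes at least 2-fold higher in both numbers were 6. Across the 35 genes the ratios of the numbers did not run together (Spearman rho -0.09, a description over 35 genes that share libraries).

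Both old libraries lay above both young ones for 9 of 35 genes, against 7.3% of all loci, and both lay below for 0 of 35, against 6.46% of all loci. The 9 were MYLPF, TNNT1, TNNC1, TPM2, ACTN2, ACTN3, MYOZ1, DES and ATP2A1. With 2 libraries per age the smallest p an exact permutation test allows is 0.333, so no single gene can pass by it.

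Limma on log2(FPKM + 1) called 0 of 35 genes at adjusted p under 0.05, where it called 0% of all loci, and 0 of 35 had an unadjusted p under 0.05, against 78 of 12753 loci. With the library number as a term it again called 0 of 35, where it called 0.0235% of all loci (lowest adjusted p of the 35 = 0.301). In that fit 11 of the 35 had an unadjusted p under 0.05 and each was higher in old skin, against 377 higher and 460 lower among all loci. The 11 were MYH7, MYL2, MYBPC1, TNNT1, NEB, ACTN3, MYOZ1, MYOZ2, DES, RYR1 and CACNA1S. Of these, MYOZ2 passed the minimum mean only through old skin, so its direction here is not independent of that filter. The directions given here are therefore those of the libraries and passed no test.

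**Figure D2:**
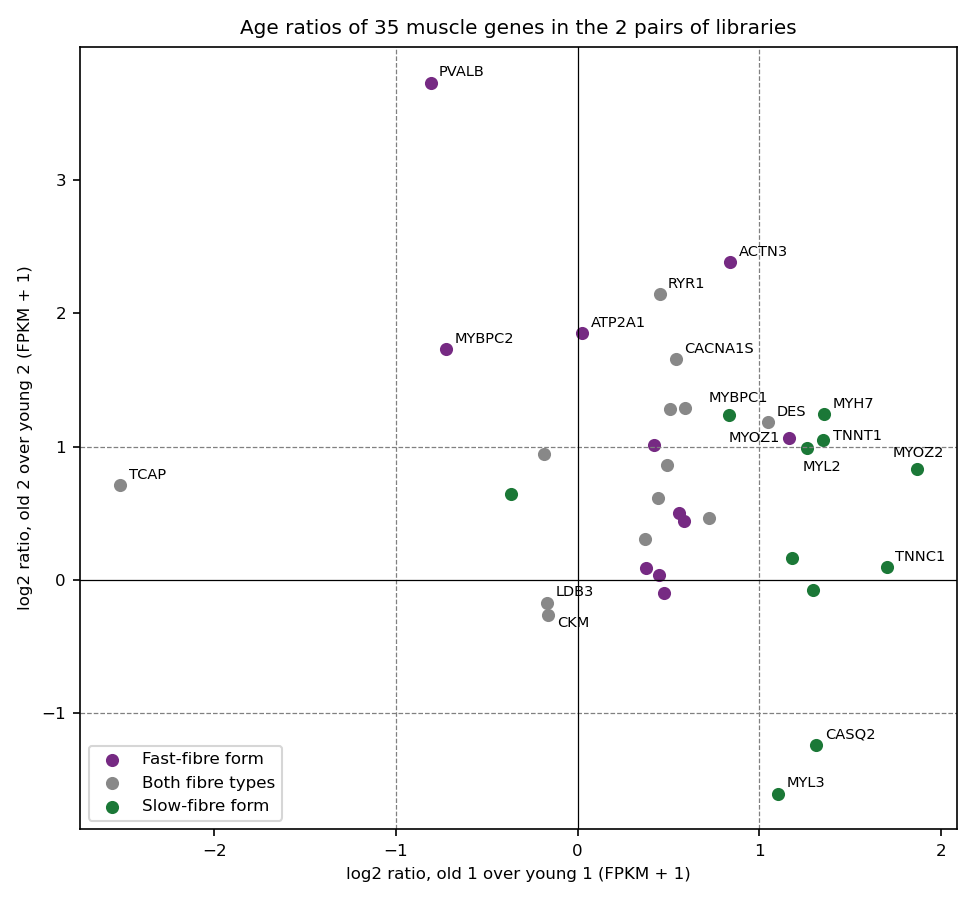
Log2 ratio of FPKM + 1 for old 2 over young 2 (vertical) against old 1 over young 1 (horizontal), 1 point per gene for 35 genes, coloured by fibre class, with dashed lines at 2-fold. Slow-fibre forms spread along the right side, with 9 of 11 past 2-fold higher in number 1, and fast-fibre forms spread upward, with 6 of 11 past 2-fold higher in number 2. Past that fold were 2.36% of all loci in number 1 and 4.33% in number 2.

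The thick filament came out higher in old skin for its slow heavy chain and its slow regulatory light chain in both numbers. MYH7, the slow myosin heavy chain (locus shared with MYH6, the heart form), stood at 32.3 and 8.63 FPKM in old 1 and old 2, against 12.0 and 3.07 FPKM in young 1 and young 2. Its log2 ratios were 1.36 and 1.24, close to each other, although the number 2 libraries were lower at both ages. In the fit with the number term it differed by 1.30 ± 0.28 (SE) on the log2 scale, with adjusted p = 0.301.

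MYL2, the slow regulatory light chain, stood at 224 and 51.7 FPKM in old 1 and old 2, against 93.0 and 25.5 FPKM in young 1 and young 2. MYBPC1, the slow form of myosin binding protein C, stood at 437 and 166 FPKM in old skin, against 244 and 69.5 FPKM in young skin. For both genes old exceeded young within each number, and the ages overlapped across numbers.

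Among fast thick filament genes, both light chains had small ratios and the heavy chain locus a larger one in number 2. MYLPF, the fast regulatory light chain, stood at 484 and 430 FPKM in old 1 and old 2, against 373 and 405 FPKM in young 1 and young 2, so its ages did not overlap but its log2 ratios were 0.37 and 0.09. MYL1, the fast essential light chain, stood at 452 and 182 FPKM in old skin, against 325 and 194 FPKM in young skin. Its ratio in number 2 was slightly below even (log2 -0.10), and 0.10 once structural and mitochondrial loci were removed and the rest rescaled. The MYH1 locus stood at 227 and 149 FPKM in old skin, against 169 and 73.1 FPKM in young skin, with log2 ratios of 0.42 and 1.01.

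In other thick filament genes the numbers disagreed. MYL3, the slow essential light chain, stood at 50.6 and 12.4 FPKM in old 1 and old 2, against 23.0 and 39.7 FPKM in young 1 and young 2, higher in old skin in number 1 and lower in number 2. MYBPC2, the fast form of myosin binding protein C, went the other way round, at 25.4 and 78.7 FPKM in old skin, against 42.6 and 23.0 FPKM in young skin.

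Thin filament genes were higher in old skin with few exceptions. All 10 of its matched genes were higher in old skin in number 1 and 9 of 10 in number 2, with medians of 0.66 and 0.46. Of all 12753 loci, 7482 were higher in old skin in number 1 and 5660 in number 2. TPM2, the beta tropomyosin that lies along actin, stood at 462 and 479 FPKM in old 1 and old 2, against 279 and 346 FPKM in young 1 and young 2. TNNI2, the fast inhibitory troponin, stood at 374 and 957 FPKM in old skin, against 249 and 702 FPKM in young skin. TNNT3, the fast troponin that binds tropomyosin, had log2 ratios of 0.56 and 0.50, and TPM1 of 0.37 and 0.31.

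TNNT1, the slow counterpart of TNNT3, stood at 39.9 and 30.4 FPKM in old 1 and old 2, against 15.1 and 14.2 FPKM in young 1 and young 2. The 2 libraries of each age lay close together and the ages did not overlap. With the number term it differed by 1.20 ± 0.31 (SE) on the log2 scale, adjusted p = 0.378.

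The other slow troponins and TPM3 were higher in old skin in number 1 and nearly even in number 2. TNNI1, the slow inhibitory troponin, had log2 ratios of 1.18 and 0.17, and TNNC1, the slow calcium-binding troponin, of 1.70 and 0.10. TPM3, the slow tropomyosin, which other cell types also make, had log2 ratios of 1.30 and -0.07, and 0.09 in number 2 after the rescaling above. NEB, or nebulin, the long ruler of the thin filament, stood at 294 and 32.0 FPKM in old 1 and old 2, against 195 and 12.5 FPKM in young 1 and young 2.

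At the Z-disc, MYOZ1 and DES were at least 2-fold higher in old skin in both numbers. MYOZ1, a calsarcin of fast fibres that tethers calcineurin, stood at 405 and 374 FPKM in old 1 and old 2, against 180 and 178 FPKM in young 1 and young 2. DES, or desmin, the intermediate filament that links Z-discs, stood at 303 and 416 FPKM in old skin, against 146 and 182 FPKM in young skin. Neither gene overlapped between ages, and with the number term they differed by 1.11 ± 0.45 and 1.12 ± 0.44 (SE) on the log2 scale, with adjusted p = 0.724 and 0.714.

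DES is also made by smooth muscle, whose 8 markers summed to 87.9 and 50.4 FPKM in old 1 and old 2, against 80.9 and 73.4 FPKM in young 1 and young 2. SYNM, not confined to smooth muscle, held 42.0 and 18.4 FPKM of these sums in old skin, against 38.4 and 18.5 FPKM in young skin. MYH11, the smooth muscle myosin, stood at 5.70 and 2.86 FPKM in old skin, against 4.10 and 2.87 FPKM in young skin. Of the 7 smooth muscle markers tested, 4 were at least 2-fold lower in old 2 than in young 2 (ACTA2, ACTG2, SMTN and LMOD1) and 0 were past that fold in number 1, with list medians of 0.06 in number 1 and -1.18 in number 2. Of all loci, 5.55% were at least 2-fold lower in number 2. The part of smooth muscle in the DES values was not tested.

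ACTN2, an alpha-actinin that cross-links actin, stood at 197 and 170 FPKM in old 1 and old 2, against 139 and 69.2 FPKM in young 1 and young 2. ACTN3, its counterpart in fast fibres, stood at 67.0 and 62.9 FPKM in old skin, against 37.0 and 11.3 FPKM in young skin. Both old libraries lay above both young ones for each actinin, and young 2 was the lowest library for both.

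MYOZ2, the slow counterpart of MYOZ1, was low, at 8.30 and 1.48 FPKM in old 1 and old 2, against 1.55 and 0.392 FPKM in young 1 and young 2. LDB3, a scaffold of the Z-disc, was near even, at 65.0 and 89.5 FPKM in old skin, against 73.1 and 101 FPKM in young skin. After the rescaling above its log2 ratio in number 2 was 0.03 in place of -0.17. TCAP, which caps titin (locus shared with STARD3), stood at 8.50 and 11.1 FPKM in old skin, against 53.4 and 6.39 FPKM in young skin, so a single library, young 1, stood above the rest.

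The M-band protein myomesin 1, MYOM1, stood at 57.4 and 19.5 FPKM in old 1 and old 2, against 40.4 and 10.3 FPKM in young 1 and young 2. MYOM2, a second myomesin, stood at 42.6 and 22.9 FPKM in old skin, against 48.5 and 11.5 FPKM in young skin. MYOM1 was higher in old skin within both numbers and MYOM2 in number 2 alone.

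CKM, the muscle creatine kinase that buffers ATP beside the filaments, did not follow the others. It stood at 450 and 524 FPKM in old 1 and old 2, against 503 and 629 FPKM in young 1 and young 2, with log2 ratios of -0.16 and -0.26. The other gene of the 35 below even in both numbers was LDB3.

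For calcium handling genes the median log2 ratio over 7 genes was 0.45 in number 1 and 1.66 in number 2. Fast forms of all roles had medians of 0.45 and 1.01, and slow forms of 1.30 and 0.64. At least 2-fold higher were 1 of 7 calcium handling genes in number 1 (2.36% of all loci) and 4 of 7 in number 2 (4.33%). In number 2, 1 of 7 was at least 2-fold lower (5.55% of all loci). ATP2A1, the pump that returns calcium to the store in fast fibres, stood at 538 and 699 FPKM in old 1 and old 2, against 529 and 193 FPKM in young 1 and young 2. Young 2 was the low library, while the number 1 libraries were alike, with a log2 ratio of 0.03 that was -0.04 after the rescaling and -0.05 with median-of-ratios scaling.

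The release machinery also had its lowest library in young 2. RYR1, the calcium release channel, stood at 71.1 and 34.1 FPKM in old 1 and old 2, against 51.7 and 6.93 FPKM in young 1 and young 2. CACNA1S, the voltage sensor that opens it, stood at 57.5 and 36.2 FPKM in old skin, against 39.2 and 10.8 FPKM in young skin. Both genes were higher in old skin within each number, at log2 ratios of 0.45 and 0.54 in number 1 and of 2.15 and 1.66 in number 2. For both, old 2 lay below young 1, so the ages overlapped across numbers.

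PVALB, or parvalbumin, a soluble calcium buffer of fast fibres in rodents, had the highest ratio of the 35 genes in number 2. It stood at 8.18 and 97.0 FPKM in old 1 and old 2, against 15.1 and 6.39 FPKM in young 1 and young 2. A single library, old 2, stood above the rest, with a log2 ratio of 3.73 in number 2 and of -0.81 in number 1.

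The stores' calcium-binding proteins differed less or in opposite ways. CASQ1, the calsequestrin of skeletal muscle (locus shared with PEA15), stood at 62.9 and 44.3 FPKM in old 1 and old 2, against 45.9 and 43.2 FPKM in young 1 and young 2. CASQ2, the form of heart and slow fibres, stood at 23.7 and 1.04 FPKM in old skin, against 8.94 and 3.80 FPKM in young skin, so old 1 was the highest library and old 2 the lowest. ATP2A2, the pump of slow fibres and of many other cells, stood at 68.6 and 35.9 FPKM in old skin, against 88.7 and 22.6 FPKM in young skin.

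Slow and fast forms took different sides of the 2 pairs of libraries. Of 11 slow genes, 9 were at least 2-fold higher in number 1, and 3 were higher and 2 lower by that fold in number 2. Of 11 fast genes, 1 was at least 2-fold higher in number 1 and 6 in number 2. Of all loci, 2.36% were at least 2-fold higher in number 1, and 4.33% were higher and 5.55% lower in number 2. The median log2 ratio of slow genes was 1.30 in number 1 and 0.64 in number 2, that of fast genes 0.45 and 1.01, and that of the 13 genes of both fibre types 0.45 and 0.86.

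Summed FPKM, a level per length, was lower for slow than for fast forms in all 4 libraries. The fast forms leave out TNNC2, which no name matched, while slow TNNC1 is counted. Summed slow FPKM were 33.4% and 9.10% of summed fast FPKM in old 1 and old 2, against 24.2% and 9.05% in young 1 and young 2. The log2 of this ratio averaged -2.52 in old and -2.76 in young libraries, a difference of 0.24 (exact permutation p = 0.667, two-sided, 2 against 2 libraries). Within the numbers it was 0.46 in number 1 and 0.01 in number 2. The value in number 2 is so near even that its sign depends on leaving out the locus described as TNNC2. That locus stood at 918 and 457 FPKM in old 2 and young 2. The sign of the difference of 0.24 changed without old 1 (-0.70) or without young 2 (-0.48). Without MYBPC1, the slow gene of highest FPKM in each library, and MYBPC2 it was 0.50 in number 1 and -0.37 in number 2. Slow FPKM were then 18.4% and 4.65% of fast FPKM in old skin, against 13.0% and 5.98% in young skin. When each gene counted equally, the mean log2 level of slow minus fast genes was higher in old skin by 0.87 in number 1, and its difference was -0.86 in number 2, so the 2 numbers pointed opposite ways and the overall difference was 0.01 (exact permutation p = 1.0).

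Partner genes of the same role were also compared, as ratios of plain FPKM. In 8 of 9 slow and fast partners the slow form was higher relative to the fast one in old 1 than in young 1, and in 4 of 9 it was so in old 2 against young 2, with median shifts of 0.89 and -0.25 on the log2 scale. The 4 with a higher slow share in both were MYH7 over the MYH1 locus, MYL2 over MYLPF, TNNT1 over TNNT3 and MYOZ2 over MYOZ1. Among them MYOZ2 passed the minimum mean only through old skin. MYL2 was 46.3% and 12.0% of MYLPF in old 1 and old 2, against 24.9% and 6.30% in young 1 and young 2. TNNT1 was 17.2% and 5.38% of TNNT3 in old skin, against 9.58% and 3.57% in young skin. ATP2A2 was lower relative to ATP2A1 in old skin in both numbers, at 12.7% and 5.13% in old skin, against 16.8% and 11.7% in young skin. MYBPC1 alone stood above its fast partner, at 1720% and 210% of MYBPC2 in old skin, against 573% and 303% in young skin.

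**Figure D3:**
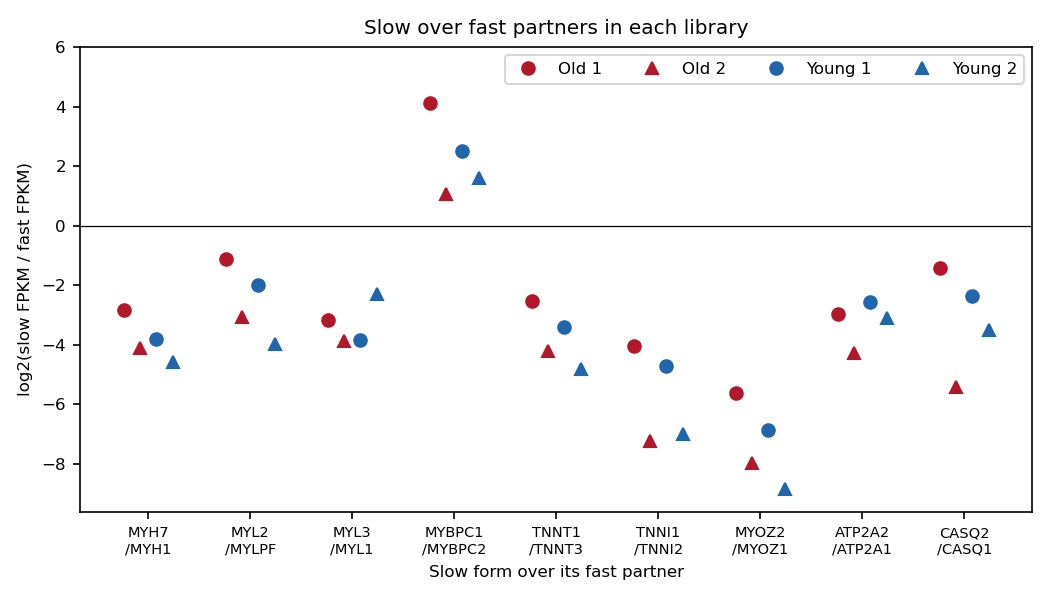
Log2 of slow over fast FPKM (vertical) for 9 partner genes (horizontal) in old 1, old 2, young 1 and young 2, 1 point per library. Points of the same number compare the ages, and 8 of 9 partners have old 1 above young 1 while 4 of 9 have old 2 above young 2.

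Some genes differed more between library numbers than between ages. NEB was lower in number 2 than in number 1 by log2 ratios of -3.16 in old and -3.86 in young libraries. MYL2 had ratios of -2.09 and -1.83 for the same contrast, old before young. RYR1 had ratios of -1.04 and -2.73, so in old libraries its number ratio was smaller in size than its age ratio in number 2 (2.15). The fast troponins went the other way, with TNNI2 at 1.35 and 1.49 and TNNT3 at 1.28 and 1.33. The part of the number in any single age ratio was not tested.

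Further sarcomere genes also had medians above even in each number. Of 25 tested, 15 were higher in old skin in both numbers and 2 lower in both, with medians of 0.56 and 0.43. Of all loci, 26.7% were higher and 23.1% lower in both. At least 2-fold, 7 were higher and 1 lower in number 1 (2.36% and 1.83% of all loci). In number 2, 5 were higher and 4 lower by that fold (4.33% and 5.55% of all loci). The higher counts include ANKRD2, which passed the minimum mean of 1 FPKM only through old skin. FLNC, a filamin of the Z-disc, stood at 152 and 82.4 FPKM in old 1 and old 2, against 83.5 and 19.0 FPKM in young 1 and young 2. NRAP, which helps to assemble myofibrils, stood at 210 and 67.3 FPKM in old skin, against 118 and 49.5 FPKM in young skin. KLHL41, which stabilises nebulin, stood at 225 and 83.6 FPKM in old skin, against 105 and 40.5 FPKM in young skin.

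Further genes of excitation and calcium release had medians slightly above even in each number. Of 16 tested, old skin was higher in both numbers for 5 and lower for 1, with medians of 0.22 and 0.22. Of all loci, 26.7% were higher and 23.1% lower in both. At least 2-fold higher were 0 of 16 in number 1 (2.36% of all loci) and 4 of 16 in number 2 (4.33% of all loci). By that fold 0 of 16 were lower in number 1 (1.83% of all loci) and 0 of 16 in number 2 (5.55% of all loci). FXYD1, a regulator of the sodium pump (locus shared with FXYD7), stood at 46.9 and 65.7 FPKM in old 1 and old 2, against 30.8 and 68.5 FPKM in young 1 and young 2. CACNA2D1, a calcium channel subunit, had log2 ratios of -0.33 and 0.15, and CACNG1, another subunit of the same channel, of 0.24 and 0.98.

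Muscle energy genes were split by number. Of 15 tested, old skin was higher in both numbers for 6 and lower for 2, with medians of -0.06 and 0.66. Of all loci, 26.7% were higher and 23.1% lower in both. At least 2-fold higher were 0 of 15 in number 1 (2.36% of all loci) and 4 of 15 in number 2 (4.33% of all loci). MB, or myoglobin, the oxygen store of muscle, stood at 420 and 1532 FPKM in old 1 and old 2, against 468 and 940 FPKM in young 1 and young 2. COX6A2, a muscle subunit of cytochrome oxidase, stood at 52.9 and 1296 FPKM in old skin, against 68.3 and 557 FPKM in young skin. ENO3, the muscle enolase, stood at 339 and 374 FPKM in old skin, against 248 and 192 FPKM in young skin.

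The dystrophin complex had medians of 0.29 and -0.01 over 12 genes, 5 of them higher in old skin within both numbers and 0 of them lower within both. For this and the lists that follow, 26.7% of all loci were higher and 23.1% lower in both numbers. DAG1, or dystroglycan, had log2 ratios of -0.14 and 0.16. Genes of the nerve and muscle junction had medians of 0.46 and 0.01 over 10 genes, with 4 higher in both and 1 lower. CHRND, an acetylcholine receptor subunit, had log2 ratios of 1.23 and -0.45. Of the muscle regulators, the 8 tested myogenic factors had medians of 0.42 and 0.33, with 5 higher in both and 1 lower. MEF2C, a muscle transcription factor also made by other cells, had log2 ratios of 0.99 and -0.45. MYOD1, which starts the muscle program, stood at 5.86 and 3.85 FPKM in old 1 and old 2, against 3.54 and 1.72 FPKM in young 1 and young 2. MYF6, the tested factor lower in both, stood at 21.7 and 10.9 FPKM in old skin, against 26.6 and 12.9 FPKM in young skin. PAX7, which marks muscle stem cells, stayed under 1 FPKM, at 0.0419 and 0.385 FPKM in old skin, against 0.904 and 0.828 FPKM in young skin. Limma called 0 genes of these 6 lists with or without the number term.

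Heart muscle was read from 5 matched markers, of which MYH6 shares the MYH7 locus. NPPA and MYL7 lay at the floor of 0.0001 FPKM in all 4 libraries, and TNNI3 lay there in both old libraries and at 0.0937 and 1.97 FPKM in young 1 and young 2. TNNT2, whose locus also holds LAD1, stood at 11.9 and 7.57 FPKM in old skin, against 8.15 and 9.02 FPKM in young skin.

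Other cell types also moved between the libraries. The 4 adipocyte markers were all higher in old 1 than in young 1 and all lower in old 2 than in young 2, with summed FPKM of 656 and 139 in old 1 and old 2, against 390 and 247 in young 1 and young 2. The 5 fibroblast markers summed to 607 and 216 FPKM in old skin, against 3504 and 6206 FPKM in young skin, a gap carried by the collagens COL1A1 and COL1A2. In number 1 the other fibroblast markers were near even, with log2 ratios of -0.06 for PDGFRA, -0.05 for DCN and -0.01 for LUM. In number 2 these were -0.28, -0.82 and -2.16. The 4 keratinocyte markers summed to 3072 and 5614 FPKM in old skin, against 2957 and 7138 FPKM in young skin. The part of these shifts in the higher muscle share of old skin was not tested.

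**Figure D4:**
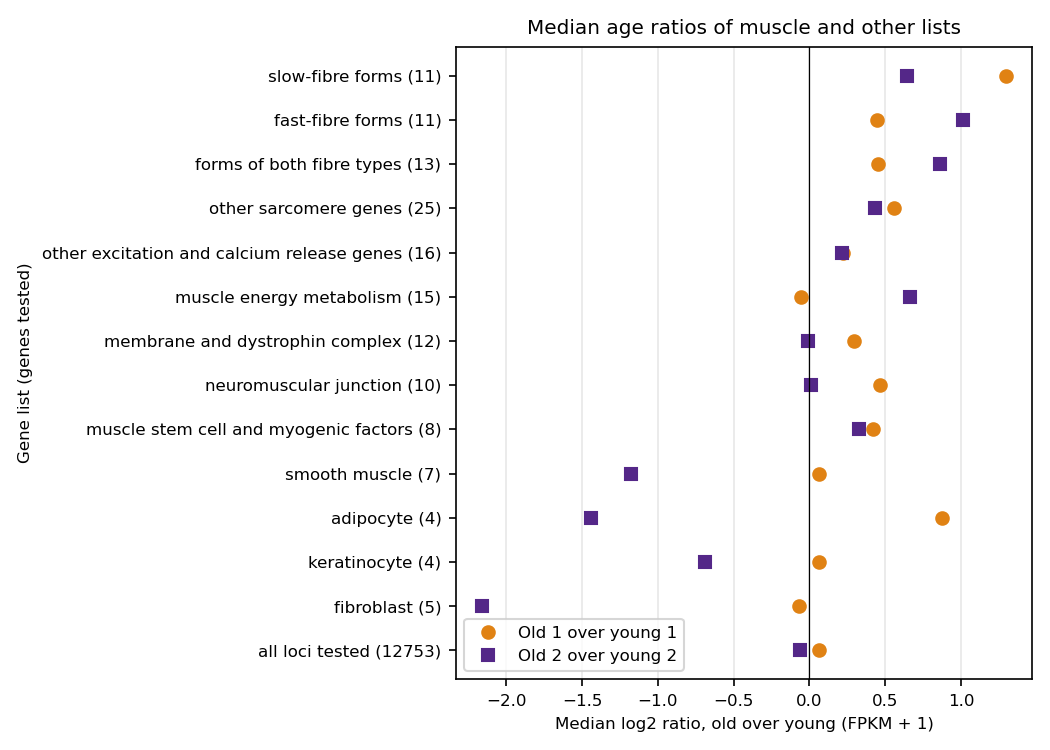
Median log2 ratio of FPKM + 1 (horizontal) for gene lists (vertical, with the number of genes tested), for old 1 over young 1 (circles) and old 2 over young 2 (squares). The 3 classes of sarcomere and calcium genes lie right of even in both pairs, with slow forms at 1.30 and 0.64, while adipocyte markers lie on opposite sides, at 0.88 and -1.44.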

How the data were processed

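Per the labels' protocols, total RNA of full-thickness skin was depleted of ribosomal RNA and sequenced from both ends. Per the submitters' processing notes, cutadapt, FastQC, Bowtie2 and TopHat2 were used. Genome build, annotation and quantifier: not given in the sources used here. In each of 4 tables the authors deposited 1 FPKM value per locus, with a floor of 0.0001, and the depth in reads is unknown. Symbols were matched to the deposited names, ignoring case.

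Limma 3.58.1 in R 4.3.3 was run on log2(FPKM + 1) for the 12753 loci averaging 1 FPKM or more, with age as the single term, a trend in the moderation and Benjamini-Hochberg adjustment at 0.05. The code was checked on simulated data, with changes larger than any limma difference of the 35 genes. That check does not show whether smaller changes would be called. Without replicates within a number, a change of at least 2-fold on FPKM + 1 is described with no test. The genes, roles, fibre classes and 11 comparison lists were chosen with earlier results of these data known. Values are given for genes at least 2-fold different in both numbers, for up to 3 of highest mean per role and up to 3 per list (loci shared with the 35 left out). Other genes named, with those of the heart list, myogenic list and cell markers, were chosen after their values were seen. Structural RNA loci (2436) are those described by Rfam alone. Alternatives were other pseudocounts, filters and scalings, each library left out, and the number as a term. Sequences are not used here. Tables and figures used matplotlib 3.10.9, numpy 2.4.6 and pandas 2.3.3 in Python 3.11.15.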

Additional observations from a re-analysis of the deposited data

How the results depend on the processing

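The labels pair no libraries, but same-numbered libraries deviated together from their age means (Pearson r = 0.823 across 12753 loci, which are not independent). With the number as a replicate block limma called 0 of the 35 genes, as it did under the 12 alternatives run, the last of which joined that block with rescaling and was chosen after seeing the data. Counts past 2-fold in either direction ran from 11 to 12 in number 1 and from 16 to 19 in number 2, and medians from 0.47 to 0.55 and from 0.79 to 0.92. At least 2-fold higher in both numbers were 4 genes, and 6 with a pseudocount of 0.1. The scalings moved the median of all loci in number 2 from -0.06 to 0.07 with structural and mitochondrial loci removed, and the 35 stood above it by 0.89 before and 0.80 after. The slow to fast difference of 0.24 was 0.33 without ATP2A2 and TPM3, 0.07 without MYBPC1 and MYBPC2 (chosen after seeing the data), and ran from -0.70 without old 1 to 1.17 without old 2. It was -0.48 without young 2 and 0.95 without young 1. For 18 of the 35 genes the log2 difference in limma kept its sign in each of the 12 alternatives that gave it a value (MYOZ2 has none at a minimum mean of 5 FPKM). For 17 it changed sign when 1 library was left out, with ranges of -0.47 to 0.84 for MYL1, -1.22 to 0.72 for MYL3, -0.29 to 1.30 for MYBPC2, -0.13 to 1.20 for TNNT3, -0.18 to 1.53 for TNNI1, -0.23 to 1.26 for TNNI2, -0.53 to 1.75 for TPM3, -0.99 to 2.87 for NEB, -2.34 to 0.54 for TCAP, -0.40 to 0.060 for LDB3, -0.26 to 1.62 for MYOM1, -0.62 to 1.38 for MYOM2, -0.83 to 1.10 for ATP2A2, -0.068 to 2.67 for RYR1, -0.0069 to 0.49 for CASQ1, -1.76 to 1.84 for CASQ2 and -0.25 to 3.17 for PVALB. CASQ2 was also at -0.19 with a pseudocount of 0.1. Leaving out 1 library unbalances the numbers against the ages. With depth unknown, no counting error can be given.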

Other observations

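A locus named ACOT8 in the tables is described there as troponin C of skeletal muscle, the fast calcium-binding troponin, and was chosen after its values were seen. It is in neither the fast sums nor the partner genes above. It stood at 194 and 918 FPKM in old 1 and old 2, against 167 and 457 FPKM in young 1 and young 2, with log2 ratios of 0.21 and 1.00, so the number 2 libraries were higher at both ages, as for TNNI2 and TNNT3.

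Other myosin genes outside the list were also read by description after their values were seen. A locus described as myosin light chain 6B stood at 44.3 and 10.6 FPKM in old 1 and old 2, against 6.86 and 12.3 FPKM in young 1 and young 2. MYLK4, described as a member of the myosin light chain kinase family, lay lower in both old libraries than in either young one, at 0.998 and 0.530 FPKM, against 11.9 and 1.93 FPKM. MYLK2, the kinase of skeletal muscle that phosphorylates the regulatory light chain, stood at 12.9 and 32.5 FPKM in old skin, against 13.7 and 7.41 FPKM in young skin.

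ANKRD2, a stretch-responsive muscle protein in the list of further sarcomere genes, was nearly silent in young skin. It stood at 1.62 and 2.65 FPKM in old 1 and old 2, against 0.0754 FPKM in young 1 and the floor in young 2. With a young mean of 0.0377 FPKM it passed the minimum mean of 1 FPKM only through old skin. Its place among the tested genes, and in the counts of that list, therefore rests on the old libraries. ACTC1, the actin of heart and developing muscle, stood at 6.82 and 1.69 FPKM in old skin, against 0.667 and 4.56 FPKM in young skin, higher in old 1 and lower in old 2 than in the young library of the same number.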
